A study of Homo sapiens with 27 samples.

Results

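The genes described here are 141 protein-coding genes of a stretch of chromosome 22 (bands q11 to q12) in cells of human invasive lobular carcinoma (ILC), a breast cancer that typically lacks E-cadherin. They are the protein-coding genes of GENCODE v44 that lie whole between 15.2 and 31.8 Mb of chromosome 22 (hg38) and have a mean of at least 1 CPM (counts scaled to a common library size) over all libraries. The annotation holds 204 protein-coding genes there, of which 195 are in the count table of 60619 genes and 54 were below that level. The members just above the minimum were MYO18B and RGL4 (mean 1.08 CPM for the second). ENSG00000248751, at a mean of 0.883 CPM, and UPB1, at 0.838 CPM, were just below it. The first gene of the set is IL17RA (chromosome 22, 17084954 to 17115693) and the last is PRR14L (31676256 to 31750140). The stretch was chosen by the measured log2 fold changes of SUM44 LTED-A against SUM44F parental cells, in which its genes were higher, so that contrast is given as a description and without a test.

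The study asked what changes in ILC cells that have learned to grow without estrogen, a model of resistance to aromatase inhibitors. RNA-Seq was done on 3 wells of each of 9 groups. From MM134 there were the parental cells and 4 long-term estrogen-deprived (LTED) variants, named A, B, D and E. From SUM44 there were SUM44PE and SUM44F cells and 2 LTED variants, named A and B. SUM44F is a culture of SUM44PE that had been grown for months in the medium used for MM134, and it is the parental culture of both SUM44 LTED variants. The MM134, SUM44F and SUM44PE parental cultures spent 3 days without hormone before collection, and the 6 LTED variants grew in medium with charcoal-stripped serum, where they had been kept for months. Each variant is 1 separately derived culture and its replicates are wells of that culture, so p-values here measure the spread between wells. Both lines are established ER-positive ILC lines, and no genotype was changed on purpose.

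Neighbouring genes on a chromosome usually have promoters of their own and are regulated apart from each other. Gains and losses of chromosome arms are common in breast cancer, and when a piece of a chromosome is gained or lost the RNA of most of its genes tends to shift in the same direction by a similar, modest factor, while genes under strong regulation can depart from it. The proximal long arm of chromosome 22 is known for low-copy repeats that cause the recurrent 22q11.2 deletion, and it holds the growth signalling genes CRKL and BCR and the tumor suppressors NF2, SMARCB1, LZTR1 and CHEK2. DNA copy number was not measured in these samples. In bulk RNA, fewer cells that express a gene and less RNA per cell cannot be told apart.

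Total counts ran from 28583554 to 134882175 per library (median 44018412). In SUM44 LTED-A, the counts of replicates 2 and 3 differed from each other less than sampling noise alone would give (chi-square per degree of freedom 0.312, against 2.35 or more for every other pair) and were counted as 1 sample, so SUM44 LTED-A has 2 samples and the series 26. Luminal keratins, EPCAM, ESR1, FOXA1 and GATA3 were present in every sample, summed to between 4374 and 8454 normalized CPM, and CDH1, which encodes E-cadherin, was at 8.35 to 24.6. SUM44F replicate 1 stands apart by markers of other cell types. Its 3 fibroblast markers (COL1A1, COL3A1 and PDGFRB) summed to 231 normalized CPM, against 4.12 to 28.7 in all other samples, and its 4 immune markers summed to 4.6, against 0.139 to 0.561. The 3 endothelial markers summed to between 25.8 and 40.5 in SUM44F and to at most 11.1 in the other groups. Medians, counts of called genes and counts of groups that do not overlap in tested comparisons with SUM44F are therefore given with and without replicate 1, and for the genes described the calls lost without it are stated.

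Sequence upstream of 3 of the genes is shown because these genes stand for different behaviours described further on: CDC45 was raised in both SUM44 LTED variants, SEC14L2 had the largest difference between SUM44PE and SUM44F past the test, and PI4KA followed the shift of the whole stretch. The windows are the 250 bases before the RefSeq start (GRCh38.p14), written 5′ to 3′ on the strand of the gene. CDC45 is on the plus strand at chr22:19479670-19479919, and its capitals mark the CCAAT box (letters CCAAT, or ATTGG on the other strand). SEC14L2 is on the plus strand at chr22:30396768-30397017, and its capitals mark the GC box (letters GGGCGG, or CCGCCC on the other strand). PI4KA is on the minus strand at chr22:20858812-20859061, and its capitals mark GC boxes and, as 1 run, the E-box CACGTG directly followed by GCGGGAAA, the E2F letters TTTCCCGC on the other strand. Different letters were marked in the 3 windows, and that of CDC45 also holds a GC box left in lower case. The capitals therefore do not compare the promoters with each other.
CDC45: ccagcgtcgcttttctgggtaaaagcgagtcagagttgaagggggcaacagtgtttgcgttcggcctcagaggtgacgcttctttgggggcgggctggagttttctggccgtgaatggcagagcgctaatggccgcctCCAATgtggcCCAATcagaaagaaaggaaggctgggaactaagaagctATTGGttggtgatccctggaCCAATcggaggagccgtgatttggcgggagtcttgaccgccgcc
SEC14L2: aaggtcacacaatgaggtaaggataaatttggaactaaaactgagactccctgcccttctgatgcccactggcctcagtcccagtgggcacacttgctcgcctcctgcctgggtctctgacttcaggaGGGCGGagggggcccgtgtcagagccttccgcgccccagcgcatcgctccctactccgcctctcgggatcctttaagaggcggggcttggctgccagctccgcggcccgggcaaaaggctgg
PI4KA: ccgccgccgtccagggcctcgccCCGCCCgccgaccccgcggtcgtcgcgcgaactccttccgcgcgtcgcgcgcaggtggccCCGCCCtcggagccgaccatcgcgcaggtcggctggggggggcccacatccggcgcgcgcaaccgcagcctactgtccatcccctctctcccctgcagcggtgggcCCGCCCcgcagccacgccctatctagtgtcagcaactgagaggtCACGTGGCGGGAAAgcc

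RefSeq promoter windows of 300 bases, which include 50 bases after the start, could be matched to 107 of the 141 genes. The GC box was found in 77 of the 107 windows (72.0%), against 44.6% of all 27305 windows and 69.0% of the windows of other protein-coding genes at this level. CCAAT was found in 29.9% of the 107 windows, 35.7% of all windows and 37.0% of those of other protein-coding genes. In the same order, CACGTG was found in 5.61%, 7.43% and 9.97%, and TATAAA in 4.67%, 12% and 5.93%. Of the E2F letters, TTTCCCGC was found in 5.61%, 1.66% and 2.47%, and TTTGGCGC in 0.935%, 0.659% and 1.09%. Each was searched on both strands. The palindromic estrogen response element was in 0 of the 107 windows and in 0.0659% of all windows. These shares describe letters and not bound sites.

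The 141 genes were at 3 separate levels across the 9 groups. Each gene was set on the log2 scale (normalized CPM + 0.5) against its mean over the 9 groups, and the median over the genes was taken in each sample. This median relative level was 0.46 ± 0.01 (SD, n = 3) in MM134 parental cells, 0.41 ± 0.02 in MM134 LTED-D, 0.38 ± 0.03 in LTED-A, 0.37 ± 0.03 in LTED-B and 0.33 ± 0.02 in LTED-E. It was -0.10 ± 0.01 (n = 2) in SUM44 LTED-A and -0.20 ± 0.04 in SUM44PE, and it was -0.84 ± 0.13 in SUM44F and -0.91 ± 0.04 in SUM44 LTED-B. The 13225 other protein-coding genes with at least 1 CPM had group means between -0.07 and 0.06. The samples of MM134 LTED-B overlapped those of the other MM134 LTED variants, and those of MM134 parental cells lay above all of them. The samples of SUM44F (-0.98 to -0.75) and SUM44 LTED-B (-0.95 to -0.87) overlapped. The overlap rests on SUM44F replicate 3 (-0.98), where other protein-coding genes were low as well. Those genes were at -0.04, -0.02 and -0.14 in SUM44F replicates 1, 2 and 3 and at 0.05 to 0.06 in SUM44 LTED-B. With SUM44F replicate 1 left out, the other 2 SUM44F samples were at -0.98 and -0.77 and still held all of SUM44 LTED-B (-0.94 to -0.87) between them. The samples of SUM44 LTED-A (-0.11 and -0.10) lay just above the 3 of SUM44PE (-0.25 to -0.17).

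The share of all counts that fell on the 141 genes gave the same order of the SUM44 groups by their means, but here SUM44F and SUM44 LTED-B did not overlap, and SUM44PE and SUM44 LTED-A did. It was 0.386% to 0.398% in SUM44PE and 0.391% to 0.425% in SUM44 LTED-A, against 0.268% to 0.277% in SUM44F and 0.225% to 0.230% in SUM44 LTED-B. It was 0.697% to 0.709% in MM134 parental cells and 0.612% to 0.642% in the 4 MM134 variants. By group means, 126 of the 141 genes (89.4%) were lowest in SUM44F or SUM44 LTED-B, against 24.6% of other protein-coding genes, and 120 (85.1%) were highest in an MM134 group, against 49.6%. The choice of the stretch favoured genes that are low in SUM44F, so these shares are a description. SUM44 LTED-A was thus above SUM44F, its parental culture, and close to SUM44PE, the culture that SUM44F came from.

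**Figure D1:**
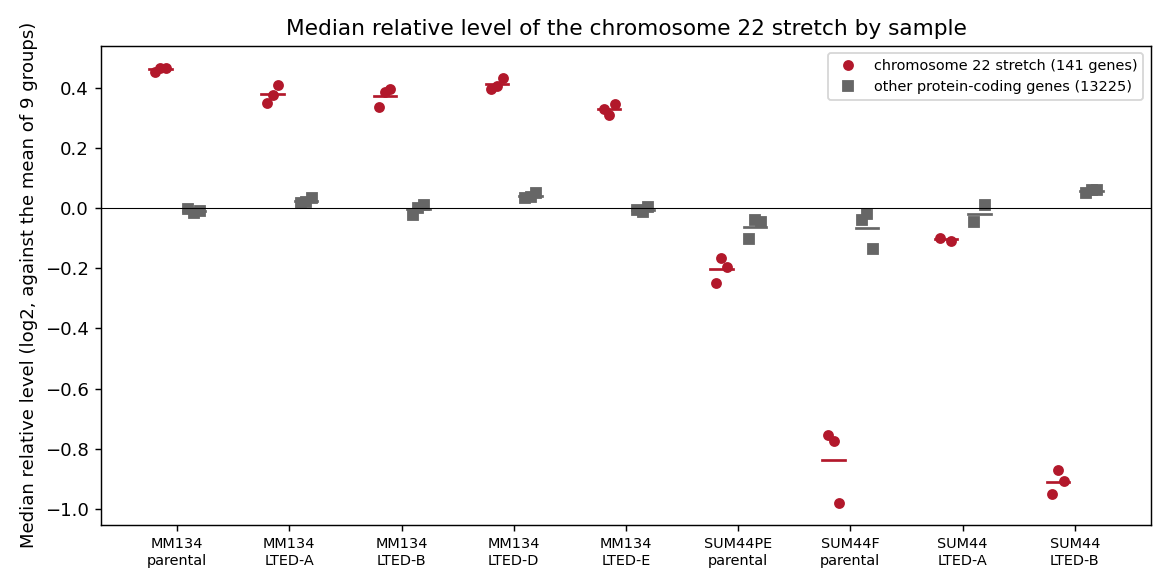
Median relative level (log2) of the 141 genes of the chromosome 22 stretch (red circles) and of 13225 other protein-coding genes (grey squares) in each of 26 samples, by group, where lines are group means. The stretch was between 0.31 and 0.47 in MM134 samples, between -0.25 and -0.10 in SUM44PE and SUM44 LTED-A, and between -0.98 and -0.75 in SUM44F and SUM44 LTED-B, while the other genes stayed near 0.

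The first comparison asked whether the 2 parental cultures of SUM44 differ over the stretch. Genes of the stretch were higher in SUM44PE than in SUM44F, with a median log2 difference of 0.62 (1.54-fold) and quartiles of 0.43 and 0.82 over 138 genes tested. Of these, 128 were above 0. The other protein-coding genes had a median of -0.04 and quartiles of -0.23 and 0.17. By edgeR's quasi-likelihood test with Benjamini-Hochberg adjustment over all genes, 64 of the 138 were upregulated in SUM44PE (adjusted p under 0.001 and more than 1.5-fold, the thresholds for differentially expressed genes throughout) and 1 was downregulated. Among all 27457 genes tested, 2.85% were upregulated and 2.72% downregulated. At an adjusted p under 0.05 with no minimum fold change, 110 genes of the stretch were higher and 3 lower (10.7% and 12.4% of all genes). All 3 SUM44PE libraries were above all 3 SUM44F libraries for 116 of the 138 genes (19.6% of all genes tested), and all were below for 4 (20.4%). Without SUM44F replicate 1 the median was 0.67 and 67 genes were upregulated, among them 61 of the 64, and the libraries were all higher for 123 genes (22.6% of all) and all lower for 5 (23.9%). Over all choices of 1 library to leave out, between 46 (without SUM44PE replicate 3) and 71 (without SUM44 LTED-A replicate 1) genes were upregulated. SUM44F is the control of the contrast that chose the stretch, so this comparison shares its low libraries.

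The comparison of SUM44 LTED-B with SUM44PE was added after the data had been seen. Neither group belongs to the contrast that chose the stretch. The fit held all SUM44 groups, so its filter, scaling and estimates of spread also used the libraries of that contrast. The stretch was lower in SUM44 LTED-B, with a median log2 difference of -0.78 (0.582-fold) and quartiles of -1.16 and -0.38 over 138 genes, of which 128 were below 0. The median of the other protein-coding genes was 0.17. Of the 138 genes, 78 were downregulated in SUM44 LTED-B (9.72% of all genes tested) and 0 were upregulated (10.5% of all). By DESeq2, 1 was upregulated, and 6 were higher at an unadjusted p under 0.05 by edgeR. At an adjusted p under 0.05 alone, 5 were higher and 107 lower (25.7% and 24.0% of all). All LTED-B libraries were below all SUM44PE libraries for 118 genes (33.9% of all genes). The change covers the path from SUM44PE through SUM44F to the variant, since SUM44 LTED-B was derived from SUM44F.

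In the contrast that chose the stretch, SUM44 LTED-A against SUM44F, the median log2 difference was 0.68 over 136 genes (quartiles 0.40 and 0.96), and the median of other protein-coding genes was 0.06. Without SUM44F replicate 1 the median was 0.70. Against SUM44PE, the median of SUM44 LTED-A was 0.08 (quartiles -0.32 and 0.37). The contrasts of SUM44PE and of SUM44 LTED-A with SUM44F share the SUM44F libraries, and their medians are set side by side as values only.

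SUM44 LTED-B, tested against its own parental SUM44F, did not have the raised stretch. The median log2 difference was -0.17 (0.887-fold, quartiles -0.47 and 0.11) over 136 genes, with 50 above and 86 below 0, and the median of other protein-coding genes was 0.12. Of the 136 genes, 11 were upregulated (8.69% of all genes tested) and 22 were downregulated (8.57%). At an adjusted p under 0.05 alone, 23 were higher and 51 lower (22.8% and 23.1%). All LTED-B libraries were above all SUM44F libraries for 27 genes (28.8% of all genes) and below them for 53 (31.0%). Without SUM44F replicate 1 the median was -0.10, with 10 upregulated and 18 downregulated, all among the genes called with it, and the LTED-B libraries were all higher for 31 genes (30.7% of all) and all lower for 53 (35.8%). Leaving out 1 library of SUM44 LTED-B lowered the downregulated count to 13 (replicate 1), 14 (replicate 2) or 13 (replicate 3) and the upregulated count to 8, 7 or 6.

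**Figure D2:**
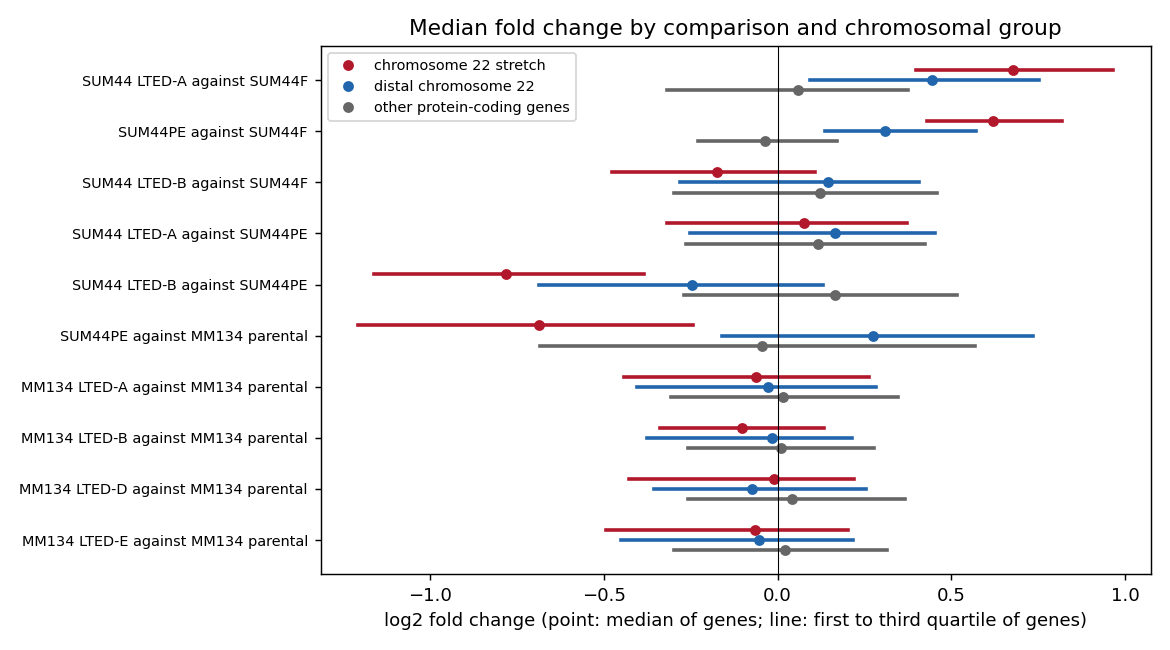
Median log2 fold change (points) and range between the quartiles over genes (lines) in each comparison for the 141 genes of the stretch, for 182 genes farther along chromosome 22 and for other protein-coding genes. The stretch had medians of 0.68 and 0.62 in SUM44 LTED-A and SUM44PE against SUM44F, -0.78 in SUM44 LTED-B against SUM44PE and -0.69 in SUM44PE against MM134 parental cells, and was between -0.10 and -0.01 in the MM134 LTED variants.

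The shift ran along the whole stretch. With the 141 genes split by position into 3 blocks of 47, the medians of SUM44PE against SUM44F were 0.72 (IL17RA to AIFM3), 0.65 (LZTR1 to TPST2) and 0.55 (PITPNB to PRR14L). For SUM44 LTED-B against SUM44PE they were -0.73, -0.85 and -0.76, and for SUM44 LTED-A against SUM44F 0.68, 0.62 and 0.71. The medians without SUM44F replicate 1 were 0.76, 0.69 and 0.59 in SUM44PE and 0.74, 0.68 and 0.70 in SUM44 LTED-A. The 5 genes nearest the left end were less uniform in SUM44 LTED-A against SUM44F. HDHD5 was at 0.92, whereas IL17RA, an interleukin receptor subunit, was at -0.01, TMEM121B at -0.38, CECR2 at -0.51 and ADA2, a secreted adenosine deaminase, at -1.01.

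The differences of SUM44PE and SUM44 LTED-A from SUM44F did not stop at the right end of the interval. Just inside it, in SUM44 LTED-A against SUM44F, DRG1 was at 0.90, EIF4ENIF1 at 0.93, SFI1 at 0.99, PISD at 0.43 and PRR14L at 0.97. Just outside it were DEPDC5, which spans the end and was not counted, at 0.75, YWHAH at 1.42, RTCB at 0.40, FBXO7 at 0.23 and SYN3, which was low, at -0.61. Of the 182 protein-coding genes farther along the arm, the first 46 (YWHAH to PLA2G6) had a median of -0.56 in SUM44 LTED-B against SUM44PE, and the following 3 blocks had medians of -0.23, -0.12 and -0.16. Other protein-coding genes had a positive median in that comparison, as given above, so all of these blocks lay below it. All 4 distal blocks had positive medians in SUM44PE against SUM44F (0.39, 0.29, 0.26 and 0.35) and in SUM44 LTED-A against SUM44F (0.41, 0.44, 0.51 and 0.47). In SUM44 LTED-A the higher level thus reached over the whole arm, at medians smaller than inside the stretch and similar in all 4 blocks. The distal medians without that library were 0.46, 0.34, 0.30 and 0.37 in SUM44PE and 0.48, 0.47, 0.50 and 0.46 in SUM44 LTED-A. The 56 noncoding genes of the interval with at least 1 CPM were also higher in SUM44PE than in SUM44F, with a median of 0.47 over 55 tested.

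**Figure D3:**
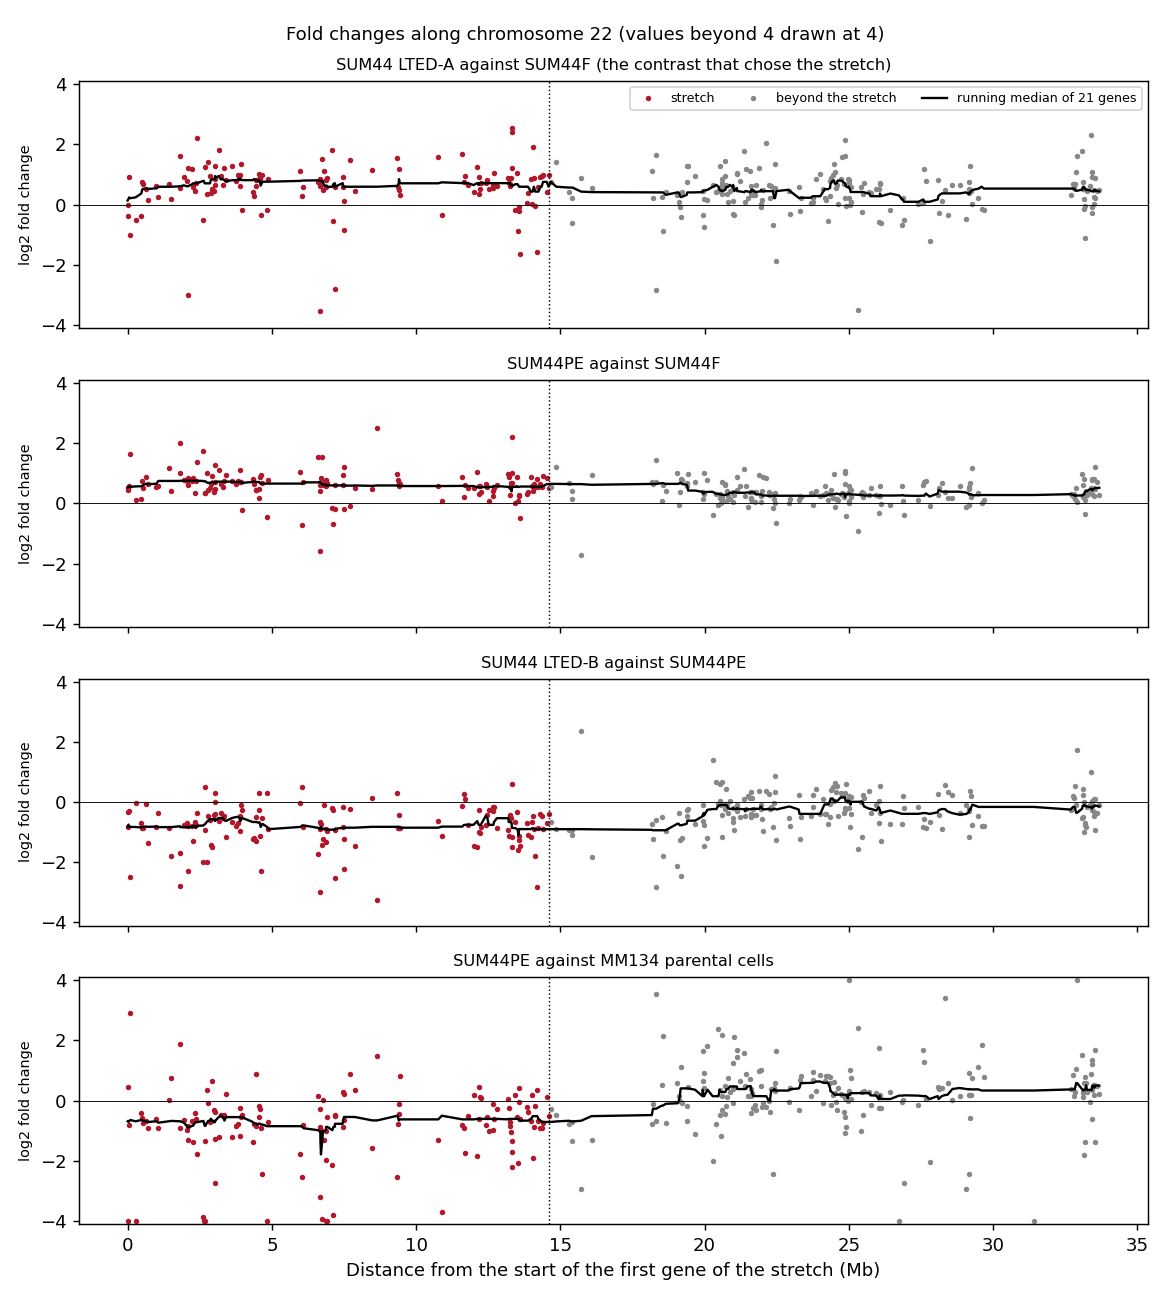
Log2 fold change of each protein-coding gene at or above 1 CPM along chromosome 22, by distance in Mb from the start of the first gene of the stretch, with the running median of 21 genes (black) and the last gene of the stretch marked by a dotted line. In all 4 panels the running median crossed the dotted line at 14.6 Mb with little change. Farther along the arm it lay nearer 0, staying positive in SUM44 LTED-A against SUM44F (block medians 0.41 to 0.51), and rose above 0 in SUM44PE against MM134 parental cells.

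The counts of called genes in the gene lists that follow can be read against the whole stretch, of which 46.4% of tested genes were upregulated in SUM44PE against SUM44F, 56.5% downregulated in SUM44 LTED-B against SUM44PE, and 8.09% upregulated and 16.2% downregulated in SUM44 LTED-B against SUM44F. No list was tested against the rest of the stretch. With SUM44F replicate 1 left out, the counts given for these lists in comparisons with SUM44F were the same, except for RNA processing and translation (10 upregulated in SUM44PE), glutathione and redox (1) and genes with near-identical copies (7).

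The growth signalling genes followed the shift in SUM44PE and SUM44 LTED-B and also showed where genes departed from it. CRKL, an adaptor of tyrosine kinase signalling, was at 85.9, 91.3 and 93.8 normalized CPM in SUM44PE, 59.1, 55.0 and 48.8 in SUM44F, 105 and 109 in SUM44 LTED-A, and 57.0, 55.4 and 52.9 in SUM44 LTED-B. SUM44F and SUM44 LTED-B overlapped, and both lay below SUM44PE and SUM44 LTED-A. CRKL was higher in SUM44PE than in SUM44F by 0.73 ± 0.07 (log2, SE) and lower in SUM44 LTED-B than in SUM44PE by a log2 difference of -0.69 ± 0.07 (edgeR adjusted p = 1.3e-05 and 5.63e-06). PIK3IP1, an inhibitor of PI3-kinase, went another way. It was at 32.1, 33.0 and 32.2 in SUM44PE, 19.4, 18.7 and 17.8 in SUM44F, 5.83 and 6.56 in SUM44 LTED-A, and 4.49, 4.45 and 4.62 in SUM44 LTED-B. Both variants were thus below both parental cultures, and PIK3IP1 was downregulated in SUM44 LTED-B against SUM44F by a log2 difference of -2.05 ± 0.10 (edgeR adjusted p = 6.29e-08). Of the 12 genes of this list in the stretch, 6 were upregulated in SUM44PE against SUM44F, and 9 were downregulated in SUM44 LTED-B against SUM44PE, among them LIMK2, a kinase of the actin cytoskeleton (-1.78), and KREMEN1, a coreceptor that dampens WNT signalling (-1.46). The tumor suppressor NF2 did not pass in either comparison (0.08 ± 0.07 and -0.27 ± 0.08).

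The cell cycle and genome maintenance genes included several that were higher than in SUM44F in both SUM44 LTED variants. CDC45, a subunit of the replicative helicase, was at 17.7, 18.6 and 18.3 normalized CPM in SUM44PE, 7.59, 7.20 and 6.47 in SUM44F, 30.5 and 35.4 in SUM44 LTED-A, and 14.1, 13.6 and 14.0 in SUM44 LTED-B. SUM44F was the lowest of the 4 groups with no overlap, and CDC45 was upregulated against it in SUM44PE (1.36 ± 0.09, edgeR adjusted p = 2.55e-07) and in SUM44 LTED-B (0.97 ± 0.09, 1.49e-05). SUM44F is the low side of the contrast that chose the stretch. That choice favours a low level in SUM44F for CDC45 and for the other genes compared with it. CHEK2, a checkpoint kinase, was at 13.1, 13.3 and 13.0 in SUM44PE, 7.35, 6.68 and 7.28 in SUM44F, 21.1 and 24.3 in SUM44 LTED-A, and 10.8, 12 and 12.8 in SUM44 LTED-B. It was upregulated against SUM44F in SUM44PE (0.87 ± 0.09) and in SUM44 LTED-B (0.74 ± 0.10). RANBP1, a regulator of the Ran GTPase cycle, was upregulated in SUM44 LTED-B against SUM44F as well (0.78 ± 0.08). Of the 8 genes of this list, 5 were upregulated in SUM44PE against SUM44F, 3 in SUM44 LTED-B against SUM44F, and 4 were downregulated in SUM44 LTED-B against SUM44PE, for example SFI1, a centrosome protein (-0.90 ± 0.06), and TOP3B, a topoisomerase (-0.91 ± 0.12).

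Lipid and sterol genes included SEC14L2, which had the largest difference of SUM44PE from SUM44F past the test. This lipid-binding protein, known as supernatant protein factor, stimulates squalene conversion. SEC14L2 was at 8.73, 9.16 and 9.44 normalized CPM in SUM44PE, 2.0, 2.48 and 1.55 in SUM44F, 11.8 and 11.4 in SUM44 LTED-A, and 4.03, 4.03 and 3.94 in SUM44 LTED-B. The 4 SUM44 groups did not overlap, and the difference of SUM44PE from SUM44F was 2.19 ± 0.14 (log2, edgeR adjusted p = 2.82e-07). Its rise in SUM44 LTED-B against SUM44F (1.00 ± 0.16, edgeR adjusted p = 0.000525) was lost when SUM44F replicate 1 (1.01, 0.00169), SUM44 LTED-A replicate 1 (1.03, 0.00144) or any 1 LTED-B library (1.00 to 1.01, 0.00269 to 0.00285) was left out. PI4KA, a phosphatidylinositol kinase, was at 84.8, 90.3 and 88.7 in SUM44PE, 55.2, 56.6 and 45.6 in SUM44F, 141 and 116 in SUM44 LTED-A, and 54.3, 56.4 and 52.7 in SUM44 LTED-B. SLC25A1, the mitochondrial citrate exporter that feeds fatty acid and sterol synthesis, was at 36.3 to 39.6 in SUM44PE, 17.4 to 23.8 in SUM44F, 47.7 to 49.7 in SUM44 LTED-A and 21.5 to 22.3 in SUM44 LTED-B. Of the 8 genes of this list, 5 were upregulated in SUM44PE against SUM44F and 6 were downregulated in SUM44 LTED-B against SUM44PE. OSBP2, an oxysterol-binding protein, departed from the shift. It was at 8.97, 9.24 and 8.87 in SUM44PE, 13.6, 13.2 and 10.6 in SUM44F, 4.35 and 3.71 in SUM44 LTED-A and 3.34, 2.92 and 3.31 in SUM44 LTED-B, and was downregulated in SUM44 LTED-B against SUM44F (-1.97 ± 0.14, edgeR adjusted p = 1.2e-06).

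**Figure D4:**
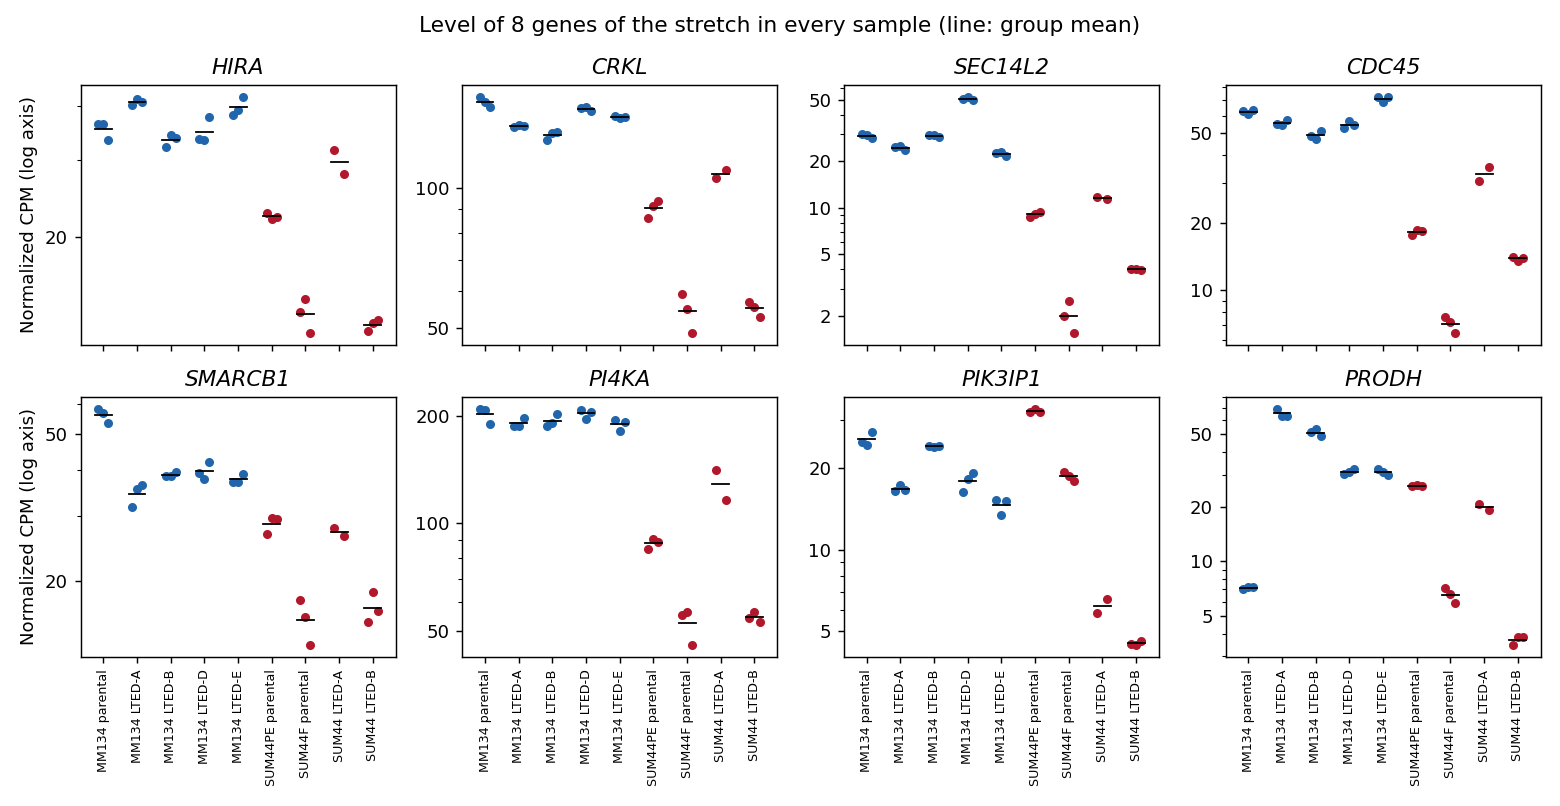
Normalized CPM (log axis) of 8 genes of the stretch in each of 26 samples (MM134 blue, SUM44 red, lines are group means). For HIRA, CRKL, SMARCB1 and PI4KA, SUM44F and SUM44 LTED-B sat together below SUM44PE and SUM44 LTED-A, whereas PIK3IP1 was at 4.45 to 6.56 in both SUM44 LTED variants and at 17.8 or more in both SUM44 parental cultures.

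Among chromatin and transcription genes, SMARCB1, a core subunit of the SWI/SNF remodeler, was at 26.8, 29.6 and 29.4 in SUM44PE, 17.8, 16.0 and 13.5 in SUM44F, 27.8 and 26.4 in SUM44 LTED-A and 15.6, 18.7 and 16.6 in SUM44 LTED-B. HIRA, a histone chaperone, was at 22 to 22.7 in SUM44PE, 12 to 14.4 in SUM44F, 27.9 to 31.7 in SUM44 LTED-A and 12.1 to 12.8 in SUM44 LTED-B. For both genes SUM44F and SUM44 LTED-B overlapped and lay below the other SUM44 samples. Of 12 such genes, 6 were upregulated in SUM44PE against SUM44F and 8 were downregulated in SUM44 LTED-B against SUM44PE. RNA processing and translation genes were even in direction. All 15 were above 0 in SUM44PE against SUM44F (median 0.59, 8 upregulated) and below 0 in SUM44 LTED-B against SUM44PE (median -0.43, 5 downregulated). SNRPD3, a core spliceosome protein, was upregulated in SUM44PE against SUM44F (0.59 ± 0.08), and EWSR1, an RNA-binding protein, did not pass (0.32 ± 0.09). Of 14 mitochondrial genes, 5 were upregulated in SUM44PE against SUM44F and 7 downregulated in SUM44 LTED-B against SUM44PE. MTFP1, a protein of mitochondrial fission, was upregulated in SUM44 LTED-B against SUM44F (1.27 ± 0.12, edgeR adjusted p = 1.53e-05), from 2.72 to 3.01 normalized CPM to 6.53 to 7.18. Of 9 glutathione, redox and steroid conjugation genes, 7 were tested in SUM44, of which 2 were upregulated in SUM44PE against SUM44F and 4 downregulated in SUM44 LTED-B against SUM44PE.

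The region of the recurrent 22q11.2 deletion holds 42 listed genes, of which 34 were in the set and 33 were tested with SUM44PE. All 33 were above 0 in SUM44PE against SUM44F (median 0.73, 24 upregulated), and 20 were downregulated in SUM44 LTED-B against SUM44PE (median -0.70). PRODH, a proline-degrading enzyme with a near-identical pseudogene, was at 26.1, 26.2 and 26.1 normalized CPM in SUM44PE, 7.13, 6.62 and 5.91 in SUM44F, 20.6 and 19.2 in SUM44 LTED-A and 3.46, 3.83 and 3.84 in SUM44 LTED-B. Its difference of SUM44PE from SUM44F was 1.99 ± 0.09 (edgeR adjusted p = 9.64e-09), and that of SUM44 LTED-B from SUM44PE was -2.78 ± 0.09 (1e-10). CLTCL1, a clathrin heavy chain, was at 1.82 to 2.26 in SUM44PE, 1.17 to 1.52 in SUM44F, 0.123 and 0.184 in SUM44 LTED-A and 0.338 to 0.469 in SUM44 LTED-B. Its fall in SUM44 LTED-B against SUM44F (-1.70 ± 0.24, edgeR adjusted p = 0.000227) was lost without SUM44 LTED-B replicate 1 (-1.72, 0.00149) or replicate 3 (-1.54, 0.00247).

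Of the 10 genes highest in SUM44 LTED-A against SUM44F, SEC14L2 (2.54), CDC45 (2.22), CHEK2 (1.68) and PRODH (1.61) have been described. SUSD2, a sushi domain protein, and INPP5J, an inositol phosphatase, were higher in SUM44 LTED-A than in both parental cultures, and neither passed between SUM44PE and SUM44F (-0.15 ± 0.13 and 0.42 ± 0.16). SUSD2 was at 29.0 and 25.3 normalized CPM in SUM44 LTED-A, 6.17 to 8.90 in SUM44F and 6.69 to 7.40 in SUM44PE. INPP5J was at 22.5 and 15.4 in SUM44 LTED-A, 4.21 to 5.84 in SUM44F and 6.67 to 7.05 in SUM44PE. RTN4R, the Nogo receptor, was at 1.80 and ASPHD2 at 1.56. PITPNB, a phosphatidylinositol transfer protein (1.59), differed between the 2 SUM44 LTED-A samples (29.1 and 16.1), and the readthrough gene ENSG00000249590 (2.42) was at 2.07 and 1.05, against 0.0668 to 0.672 in SUM44F.

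Of these 10, 8 were still among the 10 highest without SUM44F replicate 1, the exceptions being ASPHD2 and PITPNB.

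The 10 lowest were MMP11 (-3.54), CLTCL1 (-2.99), the readthrough gene SPECC1L-ADORA2A (-2.80), OSBP2 (-1.64), PIK3IP1 (-1.59), ADA2 (-1.01), TCN2 (-0.86), GGT1 (-0.86), GGT5 (-0.54) and CECR2 (-0.51). MMP11, a matrix metalloproteinase made by stromal cells, was at 6.01 normalized CPM in SUM44F replicate 1, the library with the fibroblast markers, and at 0.195 and 0.178 in the other SUM44F libraries. SUM44 LTED-A was at 0.272 and 0.123, so without that library MMP11 did not separate the groups. The other 9 were still among the 10 lowest without it. The part of fibroblast RNA in the other results with SUM44F was not tested beyond leaving that library out.

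The remaining genes with the largest changes in the tested SUM44 comparisons were mostly low. ADA2 was upregulated in SUM44PE against SUM44F (1.64 ± 0.18), at 5.74 to 7.63 against 1.90 to 2.47 normalized CPM. SEPTIN5, a filament-forming GTPase, was at 5.04 to 5.77 in SUM44PE and 1.19 to 2.28 in SUM44F (1.73 ± 0.26, edgeR adjusted p = 0.000359), and RGL4 was at 1.38 to 1.71 and 0.390 to 0.634 (1.53 ± 0.23, 0.000393). RAB36, a small GTPase, was the 1 gene that was lower in SUM44PE (-0.72 ± 0.12, edgeR adjusted p = 0.00086). Each of these last 3 calls was lost when any 1 of several libraries was left out, with adjusted p-values of 0.00166 to 0.0021 for SEPTIN5 (SUM44F replicate 2 or 3, any SUM44PE library), 0.00138 to 0.00297 for RGL4 (SUM44F replicate 1 or 2, any SUM44PE library) and 0.00165 to 0.00641 for RAB36 (SUM44F replicate 1 or 2, any SUM44PE or SUM44 LTED-B library). In SUM44 LTED-B against SUM44F, ZDHHC8, a palmitoyltransferase, rose (1.23 ± 0.17) and TCN2, the vitamin B12 carrier, fell (-1.53 ± 0.26). The first call was lost without SUM44F replicate 2 or any LTED-B library (edgeR adjusted p = 0.00101 to 0.00176) and the second without SUM44F replicate 1 or 2, SUM44 LTED-A replicate 1 or any LTED-B library (0.00158 to 0.00576). GNAZ, a G protein subunit, rose by 0.99 ± 0.12, and SPECC1L-ADORA2A fell (-2.75 ± 0.35), with reads that cannot be assigned apart from SPECC1L and ADORA2A with certainty. MYO18B, an unconventional myosin, was lower in SUM44 LTED-B, where it had at most 3 counts in any library, than in SUM44PE (0.359 to 0.504 against 0.0247 to 0.0903 normalized CPM), and its fitted log2 difference of -3.24 ± 0.57 depends on the prior count. That call was lost without any SUM44PE library or without SUM44 LTED-B replicate 2 or 3 (edgeR adjusted p = 0.00102 to 0.00487).

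The stretch was lower in SUM44PE than in MM134 parental cells. The median log2 difference was -0.69 over all 141 genes (quartiles -1.21 and -0.24), against -0.05 for other protein-coding genes. By edgeR, 81 genes were lower (18.8% of all genes tested) and 7 were higher (18.5%), and at an adjusted p under 0.05 alone 108 were lower (31.0%) and 17 higher (33.2%). These are different cell lines, so gene-specific differences are wide. GSTT2B, a glutathione transferase with a near-identical copy, was at 51.7 to 55.3 normalized CPM in MM134 parental cells and at 0 to 0.163 in SUM44PE (fitted log2 difference -9.48 ± 0.35, which depends on the prior count). Its copy GSTT2 was at 2.49 to 3.77 in MM134 parental cells and had at most 1.98 counts in any SUM44PE library, so no fold change is given. GP1BB, a platelet glycoprotein, TMEM121B, and TBX1, the transcription factor of the deletion region, were also among the 5 largest falls (-5.01 ± 0.79, -4.62 ± 0.16 and -4.32 ± 0.24). These 5 genes were at most at 0.579 normalized CPM in any SUM44 sample and reached the minimum level through MM134 groups. The choice of genes thus favoured these falls. ADA2 (2.92 ± 0.19), PRODH (1.87 ± 0.06), MYO18B (1.48 ± 0.32), SGSM1 (0.89 ± 0.16) and TPST2 (0.81 ± 0.11) were higher in SUM44PE. The call of MYO18B was lost by DESeq2 (adjusted p = 0.00206) and without MM134 parental replicate 1 or 2 or SUM44PE replicate 1 or 3 (edgeR adjusted p = 0.00115 to 0.00418).

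In MM134 the stretch was slightly lower in the LTED variants than in parental cells, by relative level and by share of counts. The medians against MM134 parental cells were -0.06 in LTED-A, -0.10 in LTED-B, -0.01 in LTED-D and -0.06 in LTED-E, where other protein-coding genes had medians between 0.01 and 0.04. The upregulated and downregulated genes of the 141 were 12 and 23 in LTED-A (10.5% and 9.82% of all genes tested), 8 and 20 in LTED-B (8.11% and 7.75%), 10 and 17 in LTED-D (9.63% and 7.95%) and 10 and 24 in LTED-E (8.71% and 10.3%). Downregulated genes thus outnumbered upregulated genes in each variant, and were 12.1% to 17.0% of the 141. The minimum level is a mean over all libraries, so a gene could reach it through a high level in MM134 parental cells, which favours falls in the variants. With a mean CPM of at least 5, 15 genes were downregulated in LTED-A, 13 in LTED-B and 11 in LTED-D. At an adjusted p under 0.05 alone they were 55 and 63 in LTED-A (26.9% and 26.3%), 37 and 62 in LTED-B (24.9% and 23.5%), 52 and 57 in LTED-D (26.8% and 24.6%) and 48 and 61 in LTED-E (25.8% and 25.2%). The 4 variants share the parental libraries.

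Single genes of the stretch changed strongly in MM134. PRODH rose from 7.03 to 7.22 normalized CPM in parental cells to between 63.0 and 68.9 in LTED-A. It reached between 48.6 and 53.3 in LTED-B, between 30.3 and 32.4 in LTED-D and between 29.9 and 32.2 in LTED-E, with log2 fold changes of 3.18, 2.84, 2.14 and 2.13 (SE 0.05 to 0.06). SEPTIN5 fell from 79.5 to 80.2 in parental cells to between 4.29 and 9.44 in the 4 variants (-3.82, -3.12, -4.0 and -3.58). GNAZ was at 26.8 to 28.9 in parental cells and at 2.96 to 8.68 in the variants, and GGT5, a gamma-glutamyltransferase that cleaves leukotriene C4, was at 13.3 to 15.1 and at 1.23 to 2.60. For these 4 genes no variant sample overlapped a parental sample. SUSD2 rose in LTED-A (2.16 ± 0.06), LTED-B (1.93 ± 0.06) and LTED-D (1.18 ± 0.06). MYO18B rose from 0.114 to 0.194 normalized CPM to between 0.911 and 3.62, SGSM1 from 1.14 to 1.89 to between 4.33 and 13.9, KREMEN1 from 33.8 to 36.9 to 62.9 to 64.1 in LTED-B and 71.8 to 72.2 in LTED-D, and SLC25A18, a glutamate carrier, by 1.67 ± 0.11 in LTED-A. EMID1 was at 25.3 to 25.7 in parental cells, rose in LTED-A (0.79 ± 0.05) and LTED-E (1.49 ± 0.05), fell in LTED-B (-0.94 ± 0.05) and did not pass in LTED-D (-0.24 ± 0.05). CECR2, a bromodomain protein, was at 23.6 to 27.4 in parental cells, rose in LTED-A (0.92 ± 0.05), LTED-B (0.60 ± 0.05) and LTED-E (1.18 ± 0.05), and did not pass in LTED-D (0.22 ± 0.05). TMEM121B, TBX1 and GP1BB fell in all 4 variants. TBX1 and GP1BB (means of 1.16 and 1.26 CPM) reached the minimum level through parental cells, at 4.63 to 5.10 and 5.94 to 9.98 normalized CPM. MYO18B (mean 1.03 CPM) reached it through LTED-B and LTED-D. The choice of genes thus favoured the falls of TBX1 and GP1BB and the rise of MYO18B. GP1BB in LTED-B (-2.29 ± 0.44, edgeR adjusted p = 0.000257) was lost by DESeq2 (adjusted p = 0.0457) and without MM134 LTED-B replicate 1, 2 or 3 or MM134 parental replicate 2 (edgeR adjusted p = 0.00127 to 0.00276). GP1BB overlaps the end of SEPTIN5 on the same strand, so reads of the overlap cannot be assigned with certainty, and the falls of these genes may not be separate.

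The change of SUM44 LTED-B against SUM44F was tested against the mean change of the 4 MM134 variants. Of the 141 genes, 21 had a larger and 22 a smaller log2 fold change in SUM44 LTED-B (11.0% and 11.0% of all genes tested), and 38 and 57 at an adjusted p under 0.05 alone (23.1% and 22.9%), with a median difference of -0.15, against 0.10 for other protein-coding genes. Without SUM44F replicate 1 the median was -0.07, with 24 larger and 20 smaller.

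The shift varied with the level of the genes. Split by mean CPM into 3 sets of 47, the quartiles of SUM44PE against SUM44F were 0.22 and 0.97 in the lowest set (1.03 to 13.1 CPM), 0.55 and 0.85 in the middle set and 0.50 and 0.71 in the highest set (34.3 to 301 CPM), with medians of 0.57, 0.68 and 0.59. In the same order the medians were -0.93, -0.71 and -0.76 in SUM44 LTED-B against SUM44PE, -0.50, -0.08 and -0.12 in SUM44 LTED-B against SUM44F, and 0.40, 0.80 and 0.77 in SUM44 LTED-A against SUM44F. The set of lowest level thus had the lowest median in each of these comparisons and the widest quartiles in SUM44PE against SUM44F. Per kilobase of exon, MIF, a cytokine with tautomerase activity, was the highest of the 141 at 412 CPM per kb, followed by UQCR10, a subunit of respiratory complex III, at 81.6 and SLC25A1 at 39.5. MIF was at 145, 159 and 150 normalized CPM in SUM44PE, 103, 95.7 and 76.9 in SUM44F, 187 and 213 in SUM44 LTED-A and 125, 139 and 150 in SUM44 LTED-B. The other genes with the highest CPM included GUCD1, upregulated in SUM44PE against SUM44F (0.92 ± 0.08), NIPSNAP1, a mitochondrial protein, which missed the fold threshold (0.53 ± 0.08), and TUG1, typed as protein-coding in the annotation but known as a long noncoding RNA, which fell in SUM44 LTED-B against SUM44F (-0.74 ± 0.09).

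For 17 genes, near-identical copies or pseudogenes elsewhere make the estimated counts uncertain, among them PRODH, GSTT2B, GSTT2, PI4KA, BCR, GGT1, USP18 and DDT. Of the 15 of them tested with SUM44PE, 8 were upregulated in SUM44PE against SUM44F and 12 downregulated in SUM44 LTED-B against SUM44PE. GP1BB, TBX1, GSTT2B, GSTT2 and MYO18B were too low to be tested between the SUM44 LTED variants and SUM44F, with at most 25.1, 17.1, 24.0, 2.37 and 24.0 counts in any SUM44 library. GP1BB, GSTT2B and GSTT2 were not tested in the comparisons of SUM44PE with SUM44F and the SUM44 LTED variants either.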

How the data were processed

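RNA-Seq libraries of 27 wells in 9 groups were analysed. The authors deposited estimated counts per gene, made with Salmon 0.6.0 on the Ensembl release 82 annotation of hg38, and these were rounded to whole numbers. No strand setting is given in the sources used here. Genes were located with GENCODE release 44, and promoter sequences come from RefSeq (GRCh38.p14). The members and gene lists were chosen with earlier results of these data known.

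Replicates 2 and 3 of SUM44 LTED-A were averaged. Relative levels were set against the mean of the 9 groups rather than the parental cells of each line, as first planned, so that both lines share a reference. Counts were filtered with filterByExpr, scaled by TMM and fitted with edgeR 4.0.16 (quasi-likelihood test, R 4.3.3). One fit held MM134 groups, another SUM44F and its LTED variants, another all SUM44 groups, and the last all 9 groups. P-values were adjusted by Benjamini-Hochberg over all genes of a fit. DE genes had an adjusted p under 0.001 and more than 1.5-fold change. Genes named are the 10 highest and lowest in SUM44 LTED-A against SUM44F, the 5 largest changes each way in other contrasts, the 10 highest in level, the genes at the ends of the interval and members of 8 gene lists. DESeq2 1.42.0, RLE size factors, no filter, other thresholds, a replicate block and leaving out each library were alternatives, and block, list and overlap values without SUM44F replicate 1 were added after seeing the data. The MM134 fit and both SUM44 fits were tested on simulated counts with known changes, and the fit of all 9 groups was not. SEs and p-values measure the spread between wells, limits of 3 counts cover counting error only, and deeper libraries give more reliable values for low genes. Some genes of the interval are not reported here.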

Additional observations from a re-analysis of the deposited data

Results flagged for a closer look

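The change of SUM44 LTED-B against SUM44F differed from the mean change of the 4 MM134 variants for 43 of the 141 genes (30.5%) by edgeR's interaction term, against 22% of all genes tested. The 5 largest differences (log2) were those of MYO18B (-4.29), GNAZ (3.51), SEPTIN5 (3.38), PRODH (-3.37) and TMEM121B (2.64). MYO18B and PRODH rose and GNAZ, SEPTIN5 and TMEM121B fell in the MM134 variants. MYO18B reached the minimum level through MM134 LTED-B and LTED-D, so the choice of genes favoured its rise. In SUM44 LTED-B against SUM44F, GNAZ rose, PRODH fell (-0.82 ± 0.11), SEPTIN5 and TMEM121B did not pass, and MYO18B had at most 3 counts in a library.

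The samples of the SUM44 LTED variants lay on opposite sides of the mean median relative level of SUM44F. Every SUM44 LTED-A sample was higher, the lowest of them by 0.73 on the log2 scale, and every SUM44 LTED-B sample was lower, the highest of them with a difference of -0.0351. This difference was not tested. The SUM44 LTED-B values lie within the range of the SUM44F samples, so this measure, taken without regard to other genes, does not separate SUM44 LTED-B from SUM44F. Other protein-coding genes were at -0.14 to -0.02 in SUM44F and at 0.05 to 0.06 in SUM44 LTED-B, and the level of the stretch relative to them was not compared. By share of all counts SUM44 LTED-B was lower, at 0.225% to 0.230% against 0.268% to 0.277% in SUM44F. The direction of SUM44 LTED-A is the one by which the stretch was chosen.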

How the results depend on the processing

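With an adjusted p under 0.05 and no minimum fold change, the higher and lower genes of the stretch were 23 and 51 in SUM44 LTED-B against SUM44F, 110 and 3 in SUM44PE against SUM44F, 55 and 63 in MM134 LTED-A, 37 and 62 in its LTED-B, 52 and 57 in its LTED-D, 48 and 61 in its LTED-E, and 38 and 57 in the interaction, with 5 higher in SUM44 LTED-B against SUM44PE and 17 higher in SUM44PE against MM134 parental cells. The median of SUM44PE against MM134 parental cells was -0.72 with RLE size factors, -0.73 without the filter on low counts and -0.72 by DESeq2. RLE left 0 genes lower in SUM44PE against SUM44F (RAB36, adjusted p = 0.00111), and DESeq2 called 1 higher in SUM44 LTED-B against SUM44PE. With a mean CPM of at least 5, the medians were 0.12 in SUM44 LTED-A against SUM44PE and -0.0355, -0.0671 and -0.0318 in the MM134 variants A, B and E, 15, 13 and 11 genes fell in the MM134 variants A, B and D, and 4 were higher in SUM44PE against MM134 parental cells. In a fit of SUM44F and SUM44 LTED-B alone, the calls of SEC14L2 (adjusted p = 0.00107) and TCN2 (0.00121) were lost.

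Leaving out 1 library at a time gave 6 to 11 higher and 13 to 22 lower genes in SUM44 LTED-B against SUM44F, 46 to 71 higher and 0 to 1 lower in SUM44PE against SUM44F and, in SUM44 LTED-B against SUM44PE, 0 to 1 higher and medians of -0.84 to -0.77. Medians ranged from -0.0863 to -0.0476 in MM134 LTED-A, -0.0252 to -0.0038 in its LTED-D, -0.0671 to -0.0494 in its LTED-E and 0.0356 to 0.0886 in SUM44 LTED-A against SUM44PE. Of 1577 values of named genes over all settings, 1524 kept their direction and side of the threshold, 53 lost the call and 0 reversed.

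Replicate numbers did not pair the wells: 3 of 15 MM134 and 4 of 12 SUM44 samples correlated best with their own number. With a replicate block the medians were -0.17 in SUM44 LTED-B against SUM44F (12 higher, 22 lower), 0.62 in SUM44PE against SUM44F (64 and 1) and -0.80 in SUM44 LTED-B against SUM44PE (0 and 78), and the interaction had 21 larger and 20 smaller genes.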
